A study of Caenorhabditis elegans with 2 samples.

Results

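RNA polymerase II, immunoprecipitated through its largest subunit AMA-1, was examined at 7 protein-coding genes of Caenorhabditis elegans: tos-1, ugt-50, T26A8.4, T28F4.1, clec-266, gei-4 and gldi-8. They were chosen because each holds at least 3 summits of the list thresholded by the irreproducible discovery rate (IDR), or a peak among the 20 highest of that list. They are 7 of 19973 protein-coding genes and hold 26 IDR summits, 5.46% of the list. Chromatin was immunoprecipitated with an AMA-1 antibody and sequenced (ChIP-seq) from whole late embryos of the wild-type strain N2, of mixed sex and unknown age. The 2 samples, biological replicates 1 and 2, form 1 group with no treatment. No control sample was analysed here, and read depth is unknown. A whole embryo mixes all its cell types, so a tall peak in a few cells and a lower one in many cannot be told apart. The rank, height and number of the summits chose the genes and are given as a description, without a test.

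RNA polymerase II transcribes protein-coding genes and most small nuclear RNA and microRNA genes. It can be held near promoters before elongation, and it commonly slows beyond the poly(A) site, where the transcript is cut and the enzyme is released. In C. elegans the 5′ end of many messages is removed by trans-splicing of a short spliced leader, so an annotated gene start can be a splice site that lies downstream of the place where transcription began.

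The 7 genes are of unlike kinds. RefSeq names tos-1 a target of splicing and ugt-50 a UDP-glucuronosyltransferase, a class of enzymes that join glucuronic acid to small molecules. It names clec-266 a C-type lectin domain protein, a family whose founding members bind carbohydrates. A further 3 encode proteins with domains of nucleic acid-binding proteins, a C3H1-type zinc finger in T26A8.4, a C2H2-type zinc finger in gldi-8 and a basic leucine zipper in gei-4. T28F4.1 encodes a protein with a SERTA domain, which in mammals is found in regulators of the cell cycle and transcription.

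A summit was counted for a gene when it lay between 500 bp upstream of the gene's start and 500 bp beyond its end, and peaks were ranked by the signal value the authors' caller gave them, with rank 1 the highest. T26A8.4 held 5 IDR summits, T28F4.1, clec-266, gei-4 and gldi-8 held 4 each, tos-1 held 3 and ugt-50 held 2. Over all protein-coding genes 488 (2.44%) held an IDR summit, 22 (0.11%) held 3 or more and 16 (0.0801%) held a peak among the 20 highest. Since the rule used these values, nothing is read from the comparison. The only gene with as many summits as T26A8.4 was zfp-1, and 8 genes in all held 4. A total of 36 genes met the rule. Of the 29 that are not described here, those with the highest peaks were R12E2.11 at rank 2, ZK1248.17 and nep-25 at rank 3, and Y75B8A.23 and tim-1 at rank 5.

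**Figure D1:**
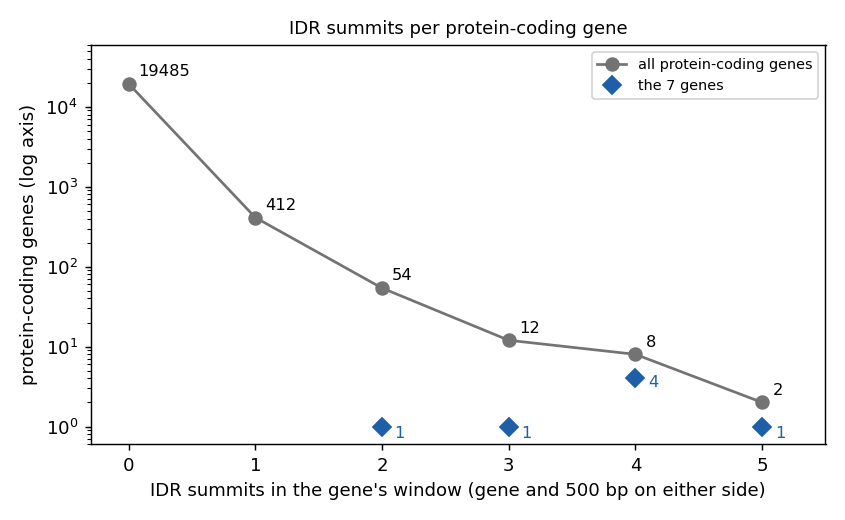
Number of protein-coding genes (log axis) by the number of IDR summits in their window, for all genes (grey circles and line) and for the 7 genes (blue diamonds). Of all genes 19485 held none and 412 held 1, while the 7 genes lie at 2 summits (1 gene), 3 (1 gene), 4 (4 genes) and 5 (1 gene).

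Close to the threshold, the peak at rank 20, the second of ugt-50, had a signal value of 152. ugt-50 met the rule also by its first peak at rank 12. tos-1 held exactly 3 summits but also met the rule by its peak at rank 6. Just outside, the peak at rank 21, in the windows of wwp-1 and icd-2, had a signal value of 151.5. The peak at rank 24, at T28B8.1, had a signal value of 143, and that at rank 25, with 140, was in no protein-coding gene's window. Genes with 2 summits and no peak among the 20 highest included hil-7 with ranks 31 and 32, F09A5.3 with 27 and 66, ubq-1 with 68 and 72, mnk-1 with 55 and 86, and egl-30 with 48 and 90. The rank threshold thus falls where signal values lie close together, though the entry of ugt-50 and tos-1 did not rest on peaks near it.

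The highest of the 26 summits was at tos-1 (WBGene00019466, chromosome V, 9338859 to 9344203 on ce11, minus strand). It had IDR rank 6 and a signal value of 300.4, and lay at 9344093, 110 bp from the gene start. It was rank 6 in replicate 1 with a signal value of 258, and rank 13 in replicate 2 with 42.7. Both replicates thus placed it among their 20 highest peaks, and their summits lay 15 and 12 bp from the IDR summit. The summit was in the first coding exon, 36 bp from the start codon. The coding strand from that start codon to as far beyond the summit is shown because it holds the highest summit in coding sequence among the 7 genes. Capitals mark the 21 bases centred on the summit.
tos-1, V:9344057-9344129, minus strand: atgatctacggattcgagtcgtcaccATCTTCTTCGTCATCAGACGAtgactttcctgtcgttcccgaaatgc

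The other summits of tos-1 depend on how the gene is drawn. Its coding span is 751 bp of the 5345 bp, and 1 of its 6 annotated transcripts is a non-coding RNA of 5271 bp that runs far beyond it. In an exon of that transcript, 3674 bp from the gene start, lay the summit of IDR rank 321. It was rank 256 in replicate 1 with a signal value of 50.3, and rank 6065 in replicate 2 with 8.82. The summit of IDR rank 81 lay 129 bp beyond the end of the long transcript, in a coding exon of coq-6, a gene of ubiquinone synthesis that ends toward tos-1. Replicate 1 had it at rank 56 with a signal value of 87.3, and replicate 2 had no peak there. Without the long transcript tos-1 would hold 1 summit.

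**Figure D2:**
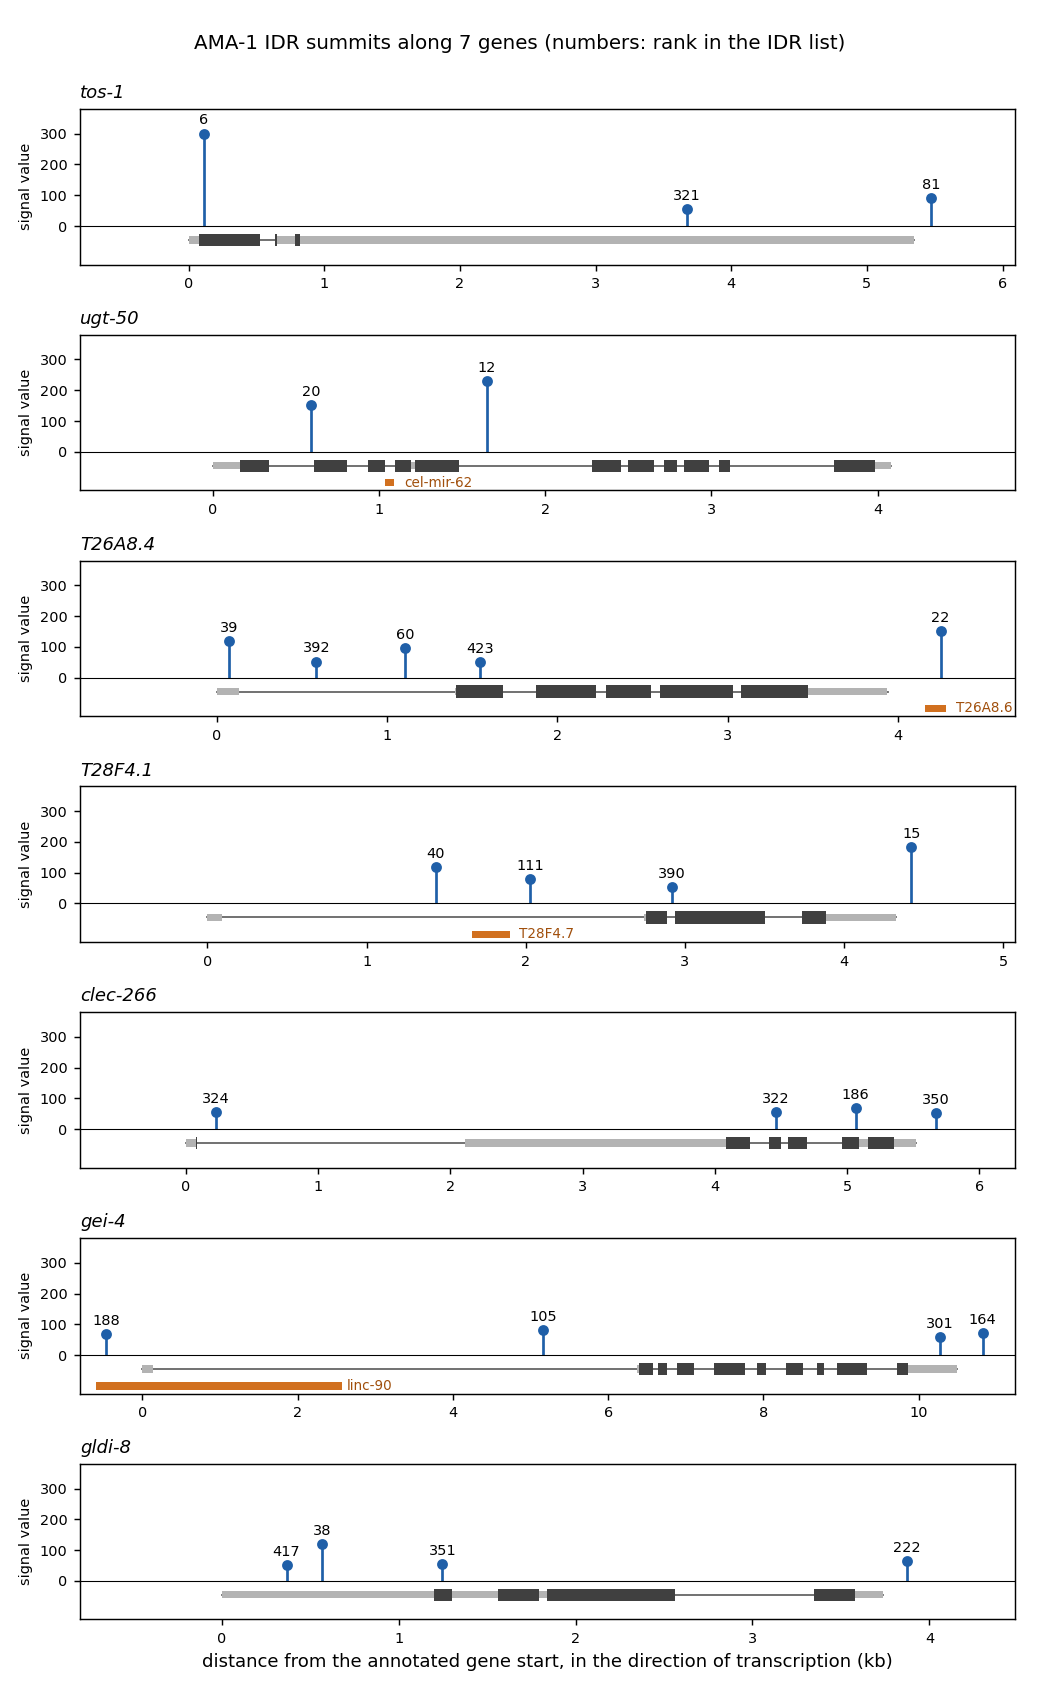
IDR summits along each gene, drawn in the direction of transcription in kb from the annotated start. Blue stems give the signal value (unit not stated) and numbers the IDR rank. Dark boxes are coding sequence of any transcript, light boxes other exons, and orange bars non-coding genes. Summits lie at the first coding exon in tos-1, in introns in ugt-50, before the coding part in T26A8.4, T28F4.1, gei-4 and gldi-8, and just beyond the end in each gene but ugt-50.

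In ugt-50 (WBGene00011564, chromosome X, 12691573 to 12695652, plus strand) both summits lay in introns. The higher, IDR rank 12 with a signal value of 231, was at 12693223, 1650 bp from the gene start. It lay 168 bp beyond the end of a shorter transcript, T07C5.1e.1. Replicate 1 had it at rank 8 with a signal value of 234.5. Replicate 2 had no peak there, and its nearest summit, at rank 2375, lay at 12693600. The second highest peak of the 7 genes in replicate 1 was thus absent from the list of replicate 2. The lower, IDR rank 20, was at 12692162, 589 bp from the gene start and 146 bp before the start of the shorter transcript T07C5.1d.1. It was rank 22 in replicate 1 with a signal value of 127 and rank 46 in replicate 2 with 27.9; both replicates ranked it high.

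Between these summits lies cel-mir-62, a microRNA gene of 58 bp at 12692608 to 12692665. In 5 transcripts an exon ends at 12692607 and the next starts at 12692666, so the annotated hairpin fills an intron exactly. Such a microRNA, a mirtron, is released by splicing instead of by the nuclease Drosha. The summits lay 446 bp before the hairpin and 558 bp beyond it, outside the 250 bp used here for a nearby non-coding gene. The sequences at both summits and of the hairpin are shown because they place the intronic signal of this gene. That at rank 20 runs into the next coding exon at its 3′ end. Capitals mark the 21 bases centred on each summit and, in the hairpin, bases 2 to 8 of the annotated mature microRNA, its seed, which pairs with targets.
ugt-50 rank 12, X:12693173-12693273, plus strand: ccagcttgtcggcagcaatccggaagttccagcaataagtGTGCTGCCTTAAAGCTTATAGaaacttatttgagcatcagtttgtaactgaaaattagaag
ugt-50 rank 20, X:12692112-12692212, plus strand: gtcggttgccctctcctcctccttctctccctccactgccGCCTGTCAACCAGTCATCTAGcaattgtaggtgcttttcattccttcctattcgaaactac
cel-mir-62, X:12692608-12692665, plus strand: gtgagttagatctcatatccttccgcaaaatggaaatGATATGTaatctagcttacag

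GC content of these stretches was 40.6% at rank 12 and 51.5% at rank 20. Of 67 genes whose symbol starts with ugt-, ugt-50 was the 1 with an IDR summit (1.49%, against 2.44% of all protein-coding genes).

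The summits of clec-266 (WBGene00016088, chromosome X, 6617393 to 6622915, minus strand) were lower, with signal values of 54.1 to 67.8, and clustered at its 3′ end. The highest, IDR rank 186 at 6617849, was in a coding exon, with rank 297 in replicate 1 (signal value 48.0) and rank 125 in replicate 2 (22.3). It was the only summit of clec-266 among the 1000 highest peaks of both replicates. Rank 322 at 6618453 was also in a coding exon, with rank 441 in replicate 1 (40.8) and 4896 in replicate 2 (9.39). Rank 350 lay 149 bp beyond the gene end, at rank 211 in replicate 1 (54.2) and without a peak in replicate 2. These 3 summits stood 604 and 605 bp apart. The fourth, rank 324 at 6622690, was 225 bp from the gene start, in an intron that overlaps a coding exon of kqt-1, a potassium channel gene on the other strand. It was rank 425 in replicate 1 (41.2) and 1207 in replicate 2 (13.3). ChIP-seq reads carry no strand of transcription, so this summit cannot be assigned to either gene. The stretch at rank 322 is shown as an example of a coding exon far from the gene start, with the 21 bases centred on the summit in capitals. This summit lay 4462 bp from the gene start but 376 bp from the nearest start codon. The stretch runs into the next intron at its 3′ end.
clec-266 rank 322, X:6618403-6618503, minus strand: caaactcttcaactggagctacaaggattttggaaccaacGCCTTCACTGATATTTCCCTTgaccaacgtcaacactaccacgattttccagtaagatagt

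Among 240 genes with symbols starting clec-, clec-266 and clec-264 held an IDR summit (0.833%, against 2.44% of all protein-coding genes). The 2 became 1 without replicate 1 and with the upper 50% of the IDR list. That of clec-264 was rank 343.

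T26A8.4 (WBGene00020827, chromosome IV, 8428957 to 8432893, minus strand) held 5 IDR summits, the most of the 7 genes, an order that turned when either replicate was left out, with 3 for T26A8.4 and 4 for gei-4 each time. With a larger share of the pooled list gei-4 held 6 and T26A8.4 held 5. Its first exon lies far from the coding part, and 3 of its 5 summits were upstream of the start codon. The summit of IDR rank 39, at 8432818, was in the 5′ UTR of the first exon, 75 bp from the gene start and 220 bp upstream of pdtf-1, a transcription factor gene read in the other direction. It was rank 47 in replicate 1 with a signal value of 94.7 and rank 21 in replicate 2 with 36.1. The summit of IDR rank 60, at 8431787, was in the first intron, 294 bp before the start of the shorter transcript. Replicate 1 had it at rank 44 with a signal value of 95.4, and replicate 2 lacked a peak there. The summit at the distal start, which cannot be assigned to T26A8.4 or pdtf-1, was thus high in both replicates. The summit before the inner start was high in replicate 1 alone. A further upstream summit, rank 392 in the same intron, was rank 1373 in replicate 1 (28.7) and rank 118 in replicate 2 (22.6). Rank 423, in a coding exon, was rank 655 in replicate 1 (35.9) and 2501 in replicate 2 (11.2).

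The highest summit in the window of T26A8.4 was not in the gene. It had IDR rank 22 and a signal value of 150.4, and lay at 8428644, 313 bp beyond the gene end and over the small nucleolar RNA gene T26A8.6 (8428614 to 8428739, minus strand). Small nucleolar RNAs guide the chemical modification of other RNAs. The same summit lay 66 bp beyond the end of tmem-231, a transmembrane protein gene. It was rank 40 in replicate 1 with a signal value of 97.3 and rank 9 in replicate 2 with 52.9, the highest rank in replicate 2 of any of the 26 summits. The peak was 129 bp wide, where most IDR peaks were 350 bp, and 80.8% of its 31-base words occur once in the genome. The snoRNA gene and the intronic stretch at rank 60 are shown because they lie under the highest summit and the one before the inner start. Capitals mark the 21 bases centred on each summit.
T26A8.6, IV:8428614-8428739, minus strand: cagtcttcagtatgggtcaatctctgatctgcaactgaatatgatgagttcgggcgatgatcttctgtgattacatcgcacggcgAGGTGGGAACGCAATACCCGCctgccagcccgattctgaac
T26A8.4 rank 60, IV:8431737-8431837, minus strand: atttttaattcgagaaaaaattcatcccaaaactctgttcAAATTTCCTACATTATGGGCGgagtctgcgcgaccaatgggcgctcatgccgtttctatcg

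gei-4 (WBGene00001561, chromosome III, 344306 to 354800, minus strand), named for its interaction with GEX-3, a protein needed for cell migration in the embryo, was the longest of the 7 genes at 10495 bp. Its highest summit, IDR rank 105 at 349638 with a signal value of 81.6, was in the long first intron, 5162 bp from the gene start and 1205 bp before the nearest downstream transcript start. It was rank 102 in replicate 1 with a signal value of 69.6 and rank 285 in replicate 2 with 18.4. In replicate 2 higher peaks stood beside it, rank 43 at 349876 and rank 86 at 350086, the second of them 448 bp from the IDR summit. The first intron thus held the highest peaks of gei-4 in both replicates, at shifted positions. The sequence at this summit is shown for its place in that intron, with the 21 bases centred on the summit in capitals.
gei-4 rank 105, III:349588-349688, minus strand: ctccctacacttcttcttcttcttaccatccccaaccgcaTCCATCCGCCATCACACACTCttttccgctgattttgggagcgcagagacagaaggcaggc

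At the other end of gei-4, IDR rank 164 lay 331 bp beyond the gene end, with rank 263 in replicate 1 (signal value 50) and rank 172 in replicate 2 (20.5). Rank 301 was in the 3′ UTR, with rank 382 in replicate 1 (43.1) and 1103 in replicate 2 (13.5). Rank 188, 469 bp upstream of the gene, lay over linc-90, a long intergenic non-coding RNA gene (352222 to 355402, plus strand). It was rank 144 in replicate 1 (63.0) and rank 25392 in replicate 2 (4.88), the largest gap between replicates among the 21 summits with a peak in both. Of 10 genes with symbols starting gei-, gei-4, which was chosen for its summits, and gei-6 (rank 175) held an IDR summit (20%, against 2.44% of all protein-coding genes). The 2 became 1 without replicate 1, and also with 250 bp on either side or the gene body only.

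In gldi-8 (WBGene00013734, chromosome III, 12595994 to 12599729, minus strand) 2 summits were in the long 5′ UTR of the longest transcript, Y111B2A.10b.1. Both lay upstream of the starts of its other transcripts. IDR rank 38, at 12599161 with a signal value of 119, lay 568 bp from the gene start, and rank 417, at 12599362, lay 367 bp from it. In replicate 1 they were rank 33 (signal value 112) and rank 153 (62.1). In replicate 2 both matched the same peak, rank 354 (17.3), so replicate 2 did not separate them. The IDR summits lay 469 and 268 bp beyond the end of epc-1, a gene of the enhancer of polycomb family. epc-1 is on the same strand, and its end overlaps the start of gldi-8. The window of epc-1 held 4 IDR summits, and these 2 were among them. Rank 351 was in the first coding exon, 47 bp from the nearest start codon, with rank 1157 in replicate 1 (30.2) and rank 53 in replicate 2 (26.7). This summit was the highest of gldi-8 in replicate 2 and not in replicate 1. Rank 222 lay 136 bp beyond the gene end, with rank 228 in replicate 1 (52.6) and 9943 in replicate 2 (7.51). The summit of that replicate 2 peak lay 157 bp from the IDR summit, in the 3′ UTR and not beyond the gene end. Of 11 genes with symbols starting gldi-, the chosen gldi-8 was the 1 with an IDR summit (9.09%, against 2.44% of all protein-coding genes).

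At T28F4.1 (WBGene00012136, chromosome I, 7472620 to 7476946, minus strand) the highest summit again lay outside the gene. It had IDR rank 15 and a signal value of 184, at 7472522, 98 bp beyond the gene end. It was rank 14 in replicate 1 with a signal value of 168 and rank 1366 in replicate 2 with 12.9. The other 3 were in introns. IDR rank 40 at 7475513 and rank 111 at 7474919 flank T28F4.7, a non-coding RNA gene inside the first intron (7475046 to 7475283, plus strand), at 230 and 127 bp. The first of these was at rank 32 in replicate 1 (signal value 112), without a peak in replicate 2. The other was at rank 97 in replicate 1 (70.5) and 910 in replicate 2 (14.1). The last, IDR rank 390, was at 496 in replicate 1 (39.3) and at 15507 in replicate 2 (6.31). The replicates thus differed in which peak of T28F4.1 was highest. In replicate 1 it was that beyond the gene end, at rank 14. In replicate 2 it was that in the first intron, at rank 910.

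**Figure D3:**
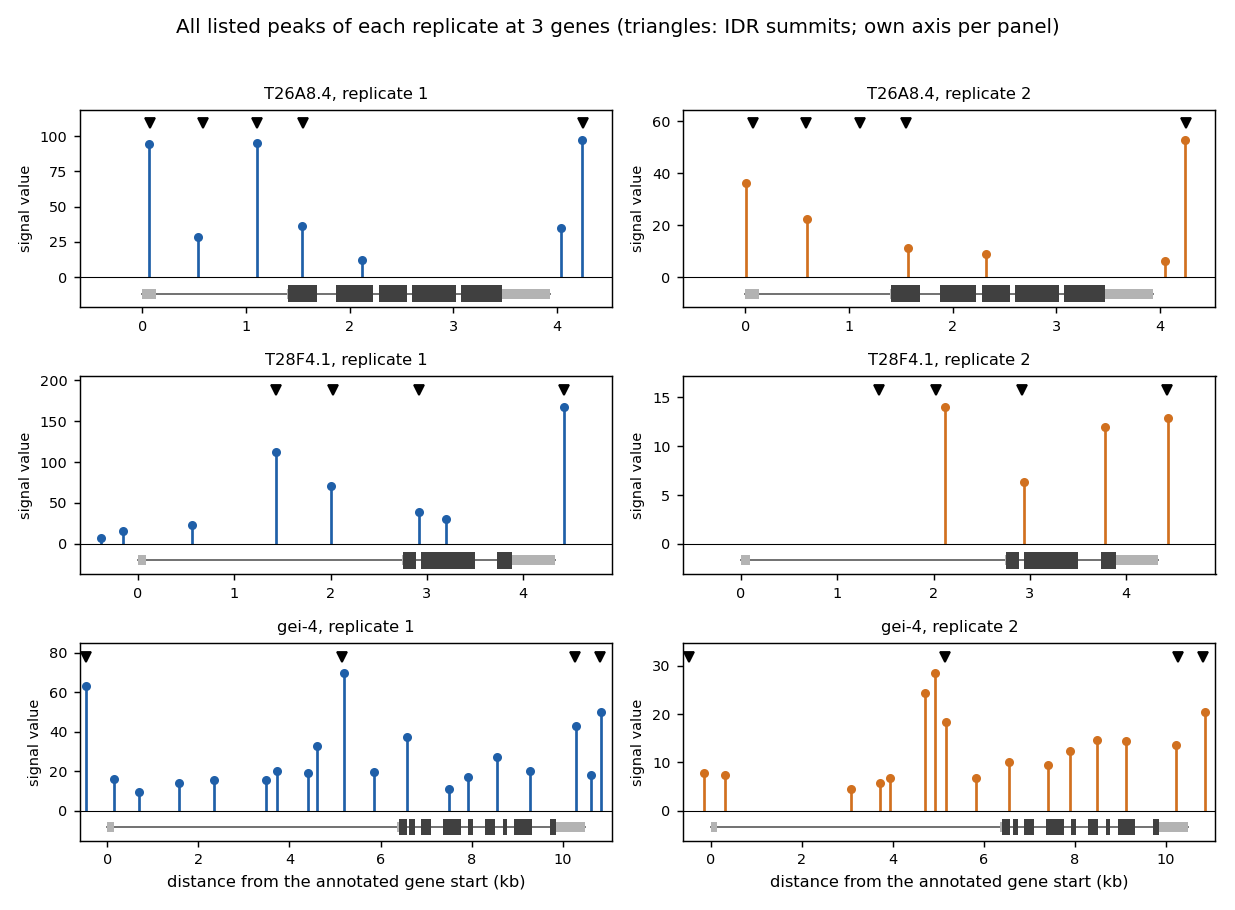
All listed peaks of replicate 1 (left, blue) and replicate 2 (right, orange) at T26A8.4, T28F4.1 and gei-4, as signal value (unit not stated, own axis in each panel) against the distance from the annotated gene start in kb. Triangles mark IDR summits, dark boxes coding sequence and light boxes other exons. The peak beyond the end of T26A8.4 is the highest in both replicates, while at T28F4.1 no peak of replicate 2 reaches a signal value of 15.

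Across the 7 genes, 10 of 26 summits (38.5%) were in an exon of the gene, against 171 (35.9%) of all IDR summits in an exon of any protein-coding gene. The second measure is wider, since the summits in coding exons of coq-6 and kqt-1 did not count among the 10. The 10 were 5 in coding exons, 3 in 5′ UTRs, 1 in a 3′ UTR and 1 in a non-coding exon. A further 9 were in introns, 6 beyond the gene end and 1 upstream. Summits within 250 bp of a non-coding gene were 4 of 26 (15.4%), against 132 (27.7%) in the whole list. The 95% exact Clopper-Pearson interval of the 4 of 26, which covers counting error only, ran from 4.36 to 34.9%. It treats the 26 summits as independent, but they come from 7 chosen genes, and 2 of the 4 flank the same gene, T28F4.7. The whole list, whose 27.7% lies within the interval, includes the 26, so the interval is not read as a test. Another protein-coding gene's window shared 6 of the 26 summits, those of coq-6, tmem-231, pdtf-1, kqt-1 and, for 2 summits, epc-1.

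A summit just beyond the annotated gene end was present in 6 of the 7 genes, with 1 such summit in each at 98 to 331 bp. The exception was ugt-50, whose highest summit lay within the gene but 168 bp beyond the end of a shorter transcript. Of the 6, that of tos-1 lay in a coding exon of coq-6 and that of T26A8.4 over the snoRNA gene T26A8.6. Those 2 summits cannot be assigned to the end of tos-1 or of T26A8.4. By the highest peaks of replicate 1 alone a summit beyond the gene end was present in 6. By those of replicate 2 alone it was present in 2, T26A8.4 and gei-4. Within 250 bp of the end it was present in 4, without T26A8.4 and gei-4. Among other genes with 3 or more IDR summits 13 of 16 (81.2%) had one, and among other genes with any summit 228 of 481 (47.4%). Summits inside the gene but upstream of the first start codon were found in 4 genes, with 3 in T26A8.4, 2 in T28F4.1, 2 in gldi-8 and 1 in gei-4. Such a summit was present in 2 of the 16 other genes with 3 or more summits (12.5%) and in 19 of the 481 other genes with any (3.95%). These differences were not tested, because the rule selected genes by their number of summits. Gene length differed too, and its part was not tested. The 7 genes were 3736 to 10495 bp long with a median of 4327 bp, against 2027 bp for all protein-coding genes.

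The replicates ranked the 26 summits differently. Replicate 1 had a peak at all 26 and replicate 2 at 21 (80.8%), against 474 and 445 (93.5%) for the whole list. The 5 without a peak in replicate 2 were 1 each at tos-1, ugt-50, T26A8.4, T28F4.1 and clec-266. Ranks in replicate 1 ran from 6 to 1373 with a median of 148.5, and those of the 21 in replicate 2 from 9 to 25392 with a median of 354. Of these 21, replicate 1 ranked 15 higher and replicate 2 ranked 6 higher. A peak among the 1000 highest of both replicates was found for 10 of 26 (38.5%), against 202 (42.4%) of the whole list, and each of the 7 genes had at least 1. Those were 2 each in T26A8.4, gei-4 and gldi-8 and 1 each in the others. The 2 of gldi-8 matched the same replicate 2 peak, rank 354. That peak, whose rank is the median given above, enters the replicate 2 counts under each of the 2 summits. With as many of its highest peaks as the IDR list holds, replicate 1 alone left 22 summits and 6 genes with 3 or more, and replicate 2 alone left 12 summits and 2 such genes, T26A8.4 and gei-4. Leaving out either replicate left gei-4 with 4 summits and T26A8.4 with 3. Among the 1000 highest peaks of replicate 1 were 92.3% of the 26 summits, against 94.5% of the whole list, and among those of replicate 2 46.2%, against 47.9%. By these shares the difference between the replicates was of like size in the whole list. By the presence of any peak in replicate 2, the 80.8% of the 26 stood below the 93.5% of the whole list, which was not tested.

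**Figure D4:**
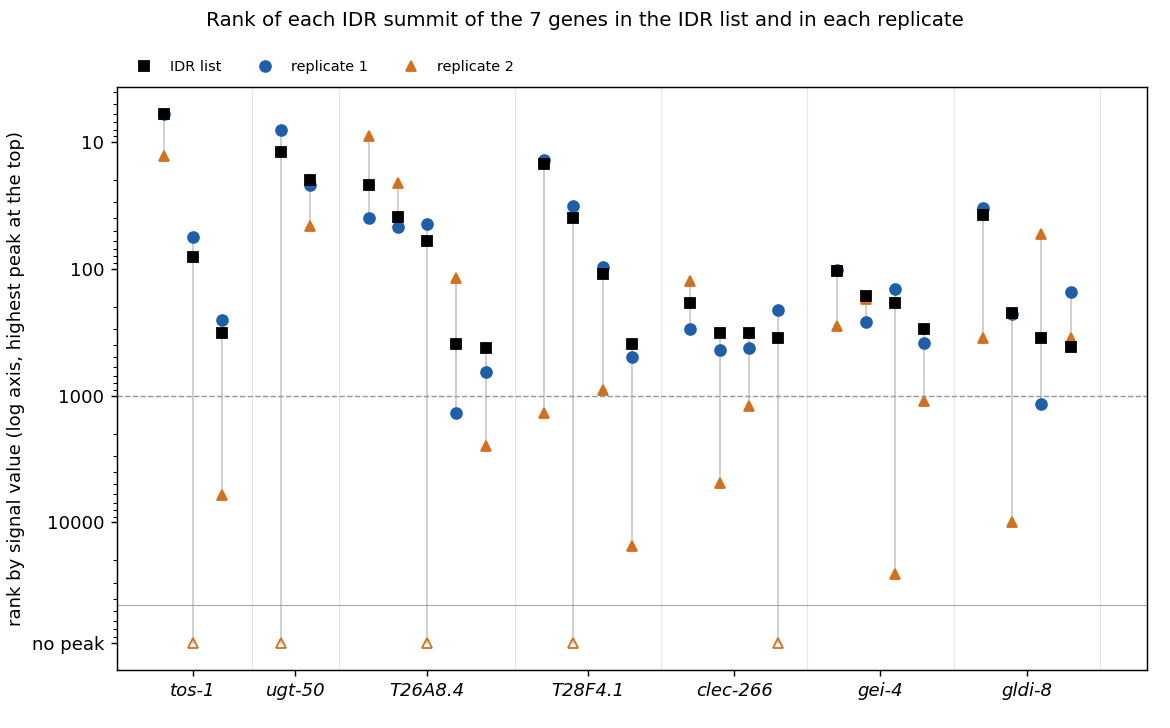
Rank of each of the 26 summits in the IDR list (black squares), replicate 1 (blue circles) and replicate 2 (orange triangles), on a log axis with the highest peak at the top. Open triangles have no peak in replicate 2 and the dashed line is rank 1000. Replicate 1 stays close to the IDR rank, with 24 of 26 above the line, while 12 are above it in replicate 2; in the whole list the shares are 94.5% and 47.9%. The ranks 38 and 417 of gldi-8 share 1 peak of replicate 2.

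Beyond the IDR list, the relaxed lists of 30000 peaks each held 64 pooled summits in the 7 windows, 65 in replicate 1 and 48 in replicate 2. Their density in the pooled list was 1.10 (tos-1) to 1.62 (T26A8.4) per kb of window, against 0.299 per kb of genome. The pooled list includes the IDR summits by which the genes were chosen. Without them 38 pooled summits remained in the windows, at 0.563 (T28F4.1) to 1.218 (gei-4) per kb, against 0.294 per kb of genome. gei-4 held the most, with 18 pooled, 19 in replicate 1 and 16 in replicate 2. The windows therefore held many low peaks besides the summits described. Their density was set beside that of the genome only, and not beside the windows of other genes. Within a gene neighbouring IDR summits stood a median of 891 bp apart, and at most 5631 bp.

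The sequences at the 26 summits were described beside those of the whole list. Median GC content around the summit was 41.8% (26.4 to 51.7%), against 42.3%. All 31-base words of the peak occurred once in the genome for 21 of 26 peaks (80.8%), against 423 (88.9%), and the lowest share was that at T26A8.6. In the same window, 100 bp to either side of the summit, and on both strands, TATAAA was found at 3 of 26 summits (11.5%, against 12.6%) and AATAAA, the poly(A) signal, at 3 (11.5%, against 23.1%). TTTCAG, the usual end of a worm intron, was found at 8 (30.8%, against 26.5%), and GAGAGA at 8 (30.8%, against 24.4%). A match says only that these letters are in the window. Of the 26 peaks 3 (11.5%) had a width other than 350 bp, against 21 (4.41%) in the whole list. They were those at rank 6 of tos-1 (218 bp), rank 12 of ugt-50 (245 bp) and rank 22 of T26A8.4 (129 bp).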

How the data were processed

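AMA-1 ChIP-seq peak lists of 2 biological replicates, which form 1 group, were analysed on ce11. Whether the replicates came from separate cultures is not stated in the labels. The deposited text says that the authors made a relaxed list for each replicate from its alignments and 1 further file, a relaxed list from both alignments, and an IDR list from these 3. The aligner, caller, versions, IDR threshold and read depth are not stated in the labels or lists, and no value carries a sampling error of reads. The authors' lists give each peak a signal value of unstated scale, used for order within a list alone, and a −log10 q-value, which 342 of 476 deposited IDR peaks share at its highest value of 2.834 and which was therefore not used for ranking. Relaxed peaks were 360 bp wide in replicate 1, 340 bp in replicate 2 and 350 bp in the pooled and IDR lists, with few exceptions. The ce10 lists were not used.

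Summits were placed against the Ensembl release 115 annotation, in which a gene spans all its transcripts, and names of products came from RefSeq. The windows for GC content and motifs were 201 bp centred on the summit. An IDR summit was matched to the overlapping replicate peak whose summit was nearest. A non-coding gene other than a piRNA was nearby within 250 bp. No gene or peak ended beyond the chromosome lengths of the RefSeq genome. Sequences were read from the RefSeq genome of the same assembly, WBcel235, and none is printed for T28F4.1 or from a UTR. Words of 31 bases were counted on both strands of the genome. Python 3.11.15, pandas 2.3.3, numpy 2.4.6, scipy 1.17.1 and matplotlib 3.10.9 were used. The counting and placing of summits and the counting of words were tested on made-up data. No statistical test was made, because the genes were chosen by these values and there is 1 group.

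The 7 genes, windows and lists were chosen with earlier results of these data known. Other genes are named where they share a summit or lie near one, where they are just outside the rule, where they meet it with the highest peaks (up to 5), or where they belong to a family named by symbol. cel-mir-62, zfp-1 and the transcripts fall outside that rule and were named after their values were seen. Alternatives were the 238 highest IDR peaks, the 952 highest pooled peaks, the 476 highest peaks of either replicate alone, other windows and other cutoffs. The coding span and the RefSeq gene span were added after the data were seen.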

Additional observations from a re-analysis of the deposited data

How the results depend on the processing

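Every alternative that could be computed left at least 6 of the 7 genes with a summit. The 26 summits became 16 with the upper 50% of the IDR list and 13 with the coding span and 500 bp on either side, an alternative chosen after seeing the data. They ranged from 12 to 22 when 1 replicate was left out, 12 being without replicate 1. The 6 genes with 3 or more summits became 3 with the upper 50% and 1, clec-266, with the coding span, and ranged from 2 to 6 when 1 replicate was left out. The share of summits in an exon was 19.23% when coding sequence alone counted, and that among the highest of both replicates was 65.38% when the 5000 highest of each counted. Without replicate 1, T28F4.1 held 0 summits, tos-1, ugt-50 and clec-266 held 1 each, gldi-8 held 2 and T26A8.4 held 3. Without replicate 2, T26A8.4 also held 3. The 6 genes with a summit beyond the end, recomputed after seeing the data, became 2 without replicate 1. With the RefSeq gene span, which leaves out the distal first exons, T26A8.4 held 3 and T28F4.1 held 2. gei-4 held 2 with 250 bp on either side. Of the planned values 107 stayed within 1.5 times the count, the interval of the share or the spread of the median, and 23 did not. No paired analysis was possible because the 2 samples form 1 group and no result comes from a test. Read depth is unknown, and its part in the peaks missing from replicate 2 was not tested.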
